A study of Rattus norvegicus with 18 samples.

Results

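Zfp692 and Stk11ip were each represented by 1 peak of trimethylated histone H3 lysine 4 (H3K4me3), 2 of the 16364 merged peaks in the deposited ChIP-seq table. The Zfp692 peak, Peak_8008, lay at chr10:43744317-43746025 and the Stk11ip peak, Peak_14496, at chr9:82718120-82719463 of the rat assembly Rnor_6.0. The count table names no genes. Each gene was paired with the peak whose control and 30 min averages matched those listed for the gene by the study, and the next closest peak lay at least 459 times further away. Both genes were selected from a list of 20 genes with reduced H3K4me3 at 30 min, so the control and 30 min read counts chose the members. Their levels and differences are therefore given as a description without a test, also at 3 h 30 min, where the comparisons share those libraries. Where either peak sits within its gene, and the reads at peaks of Schwann cell marker genes, were not analysed here, since no annotation of Rnor_6.0 was used.

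The cells were primary Schwann cells, the glia that ensheathe peripheral axons, cultured from sciatic nerves of 3-month-old Fisher rats. They were expanded early on with neuregulin and forskolin, an activator of adenylyl cyclase, and grown for the experiments without either. There were 3 groups: untreated control cells, cells given the membrane-permeable cAMP analogue 8-CPT-cAMP for 30 min and collected 30 min after washout, and cells given the same treatment and collected 3 h 30 min after washout. As to the dose, the sample characteristics give 100 μM, whereas the treatment protocol gives 50 μM. Each group had 3 ChIP and 3 genomic input libraries, 18 in all, and nothing in the labels says that the 3 came from separate cultures, so p-values measure only the spread between these libraries, which may be technical. Between 13762905 and 17160987 reads of a ChIP library fell in peaks, 75.1% to 88.5% of its aligned reads. The input libraries, which are unprecipitated chromatin, held 27344 to 835518 reads in peaks. Labels of 30 min replicate 3 mention a further sequencing run for both ChIP and input.

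H3K4me3 is deposited around the start sites of active genes and removed by iron-dependent demethylases. Stk11ip encodes a protein that binds the kinase LKB1, the product of Stk11. LKB1 phosphorylates and activates AMPK, the kinase complex that senses a fall in cellular energy, and a family of related kinases. Zfp692 encodes a zinc finger transcription factor, also called AREBP, which AMPK phosphorylates and which was described as a repressor of the gluconeogenic gene Pck1. LKB1 in Schwann cells is known for its part in the metabolic support of axons.

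The sequence around the start site of each gene is shown because H3K4me3 peaks usually cover it. Both windows come from RefSeq and the assembly GRCr8, not the assembly of the peaks, so no peak was placed on them by coordinates. Each runs from 250 bases before to 50 bases after the annotated start on the plus strand, at chr10:42988696-42988995 for Zfp692 and chr9:84461086-84461385 for Stk11ip. Capitals mark CpG dinucleotides.
Zfp692: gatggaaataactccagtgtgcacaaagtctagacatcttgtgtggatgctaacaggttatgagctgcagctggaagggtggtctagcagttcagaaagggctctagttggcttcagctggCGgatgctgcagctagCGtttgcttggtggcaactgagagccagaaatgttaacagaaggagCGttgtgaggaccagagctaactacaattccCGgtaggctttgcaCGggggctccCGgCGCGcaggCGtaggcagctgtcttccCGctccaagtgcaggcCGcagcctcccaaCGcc
Stk11ip: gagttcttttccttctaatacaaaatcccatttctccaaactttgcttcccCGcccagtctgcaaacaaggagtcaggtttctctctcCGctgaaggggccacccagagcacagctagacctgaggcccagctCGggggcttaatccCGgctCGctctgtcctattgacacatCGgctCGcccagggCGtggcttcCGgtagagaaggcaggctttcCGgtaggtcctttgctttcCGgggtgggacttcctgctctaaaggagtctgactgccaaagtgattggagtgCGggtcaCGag

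The windows resembled each other in base composition. The Zfp692 window held 12 CpG dinucleotides at a GC content of 56.0%, and the Stk11ip window 13 at 56.3%, against medians of 7 and 51.7% over 33469 RefSeq windows of the same length. The motifs below were searched on both strands. Neither window held the cAMP response element TGACGTCA, present in 1.83% of all windows, or its core TGACG, present in 21.2%, which is also counted inside the longer element. The Zfp692 window likewise had no match to CCAAT, none to GGGCGG and none to TATAAA. The Stk11ip window held 1 CCAAT on the minus strand, 30 bases after the start, and 1 GGGCGG on the minus strand, 200 bases before it. CCAAT was present in 37.5% of all windows, GGGCGG in 33.1% and TATAAA in 14.2%. These are matches of letters in a short window, and no binding was measured.

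Promoter windows of other genes around LKB1 and AMPK were richer in GC. Of a list of 50 genes for the LKB1 complex, AMPK subunits, upstream kinases, AMPK-related kinases, substrates and gluconeogenic targets, 45 had a window, with a median GC content of 66.3% and a median of 26 CpG dinucleotides. The full cAMP response element was found in 1 of them, Ppargc1a, a transcriptional coactivator of mitochondrial genes. The core TGACG was found in 18, GGGCGG in 30, CCAAT in 13 and TATAAA in 3. Both members thus lay below the list's median for GC content and CpG number, as a description of sequence only. H3K4me3 at the other genes of this list was not analysed here.

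Peak_8008 was 1709 bp wide, wider than 58.1% of all peaks, and Peak_14496 was 1344 bp wide, wider than 39.9%. On the per-length scale of reads per kb for every 1000000 reads in peaks (RCPM), the mean level over the 9 ChIP libraries was 42.8 at Peak_8008 and 36.5 at Peak_14496, against a median of 31.8 over all peaks. In the control cells the level was 45.7 ± 0.108 RCPM (SD, n = 3) at the Zfp692 peak and 39.2 ± 0.837 RCPM (SD, n = 3) at the Stk11ip peak. Per length, the Zfp692 peak was thus the higher of the pair, and the same order held at 30 min, with 37.8 ± 0.644 and 32.5 ± 1.07 RCPM (SD, n = 3). At 3 h 30 min the levels were 44.8 ± 0.913 and 37.8 ± 1.19 RCPM (SD, n = 3).

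H3K4me3 at the Zfp692 peak was lower in all 3 libraries collected 30 min after washout than in any control library, and at 3 h 30 min 2 libraries lay below the narrow control range and 1 just above it. The control libraries 1, 2 and 3 held 1071, 1128 and 1132 reads in Peak_8008, or 78.2, 78.3 and 78.3 reads for every 1000000 after TMM scaling (CPM). The 30 min libraries held 1087, 1003 and 1041 reads, or 63.7, 65.6 and 64.7 CPM. The 3 h 30 min libraries held 1169, 1098 and 1116 reads, or 75.1, 75.5 and 78.4 CPM. Raw reads overlapped between the groups, and the 30 min libraries were on average the deepest. A gap of 12.6 CPM separated the lowest control library from the highest 30 min library, and the 3 h 30 min libraries overlapped the control ones.

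The mean level of the Zfp692 peak was 78.3 ± 0.0948 CPM in control cells, 64.7 ± 0.954 at 30 min and 76.3 ± 1.81 at 3 h 30 min (SD, n = 3 each). In the edgeR fit of all peaks, the log2 difference of 30 min minus control was -0.28 with a standard error (SE) of 0.03, a change of -17.5%. For 3 h 30 min minus 30 min it was 0.24 (SE 0.03), a change of 18.1%. What remained between 3 h 30 min and control was a log2 difference of -0.04 (SE 0.03), with a 95% interval from -0.10 to 0.02. DESeq2 gave -0.03 with a wider SE of 0.05 for this difference. The libraries of this peak spread less than counting reads alone would give, so the edgeR SEs and interval may be too narrow. Of the 9 pairs of a 3 h 30 min and a control library, 6 had the lower value at 3 h 30 min.

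The Stk11ip peak followed the same course at a lower level. The control libraries 1, 2 and 3 held 708, 775 and 765 reads in Peak_14496, or 51.7, 53.8 and 52.9 CPM. The 30 min libraries held 771, 646 and 702 reads, or 45.2, 42.2 and 43.6 CPM, and the 3 h 30 min libraries 815, 717 and 711 reads, or 52.3, 49.3 and 50.0 CPM. All 3 libraries at 30 min were below every control and every 3 h 30 min library, and the gap to the lowest control library was 6.51 CPM. At 3 h 30 min, replicate 1 lay inside the control range and replicates 2 and 3 lay just below it.

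Mean H3K4me3 at the Stk11ip peak was 52.8 ± 1.08 CPM in control cells, 43.7 ± 1.46 at 30 min and 50.5 ± 1.59 at 3 h 30 min (SD, n = 3 each). The log2 difference was -0.27 (SE 0.04) between 30 min and control, a change of -17.2%, and 0.21 (SE 0.04) between 3 h 30 min and 30 min, a change of 15.7%. For 3 h 30 min against control it was -0.06 (SE 0.04), with a 95% interval from -0.14 to 0.02. DESeq2 gave -0.06 with a wider SE of 0.06 for this difference, and the edgeR values may be too narrow here too. The 2 members therefore had log2 differences at 30 min that lay within 1 SE of each other, and both were selected by this difference.

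**Figure D1:**
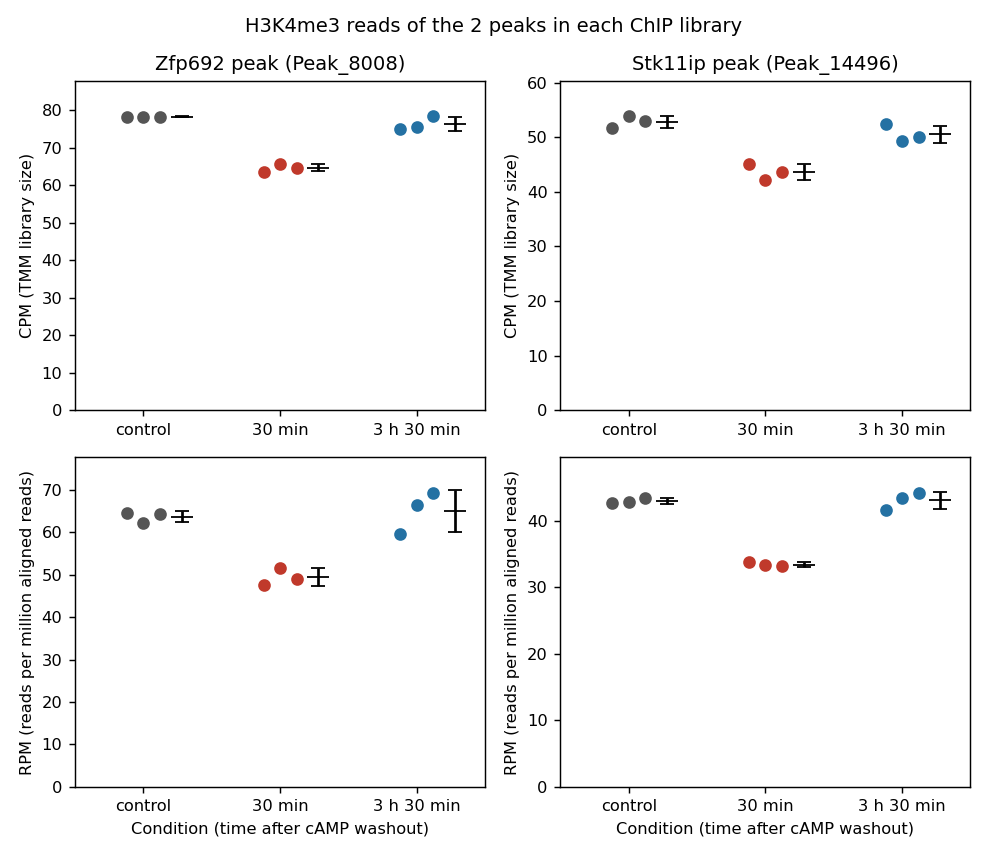
H3K4me3 reads of Peak_8008 (left) and Peak_14496 (right) in each ChIP library by condition, as CPM with TMM library sizes (top) and as reads for every 1000000 aligned reads (RPM, bottom). Points are the 3 libraries of a condition, and the bar beside them is the mean ± SD. On both scales the 3 libraries at 30 min sit below all others, from 63.7 to 65.6 CPM at Peak_8008 and from 42.2 to 45.2 CPM at Peak_14496.

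Non-overlapping libraries are common in this data set. Over all peaks, 17.5% had every 30 min library below every control library, and 22.9% had every 3 h 30 min library above every 30 min library. The size of the difference was less common, but it is the measure by which the genes were selected. Only 32 of the 16364 peaks had a log2 difference below that of Peak_8008 between 30 min and control, and 33 had one below that of Peak_14496. From 30 min to 3 h 30 min, 97.5% of all peaks had a log2 difference below that of Peak_8008 and 96.4% one below that of Peak_14496. In that comparison 41.2% of all peaks passed an adjusted p-value of 0.05, so called differences were widespread at the later time. Against control, 37.4% and 31.4% of peaks at 3 h 30 min had lower log2 differences than Peak_8008 and Peak_14496, so both members lay inside the bulk of all peaks.

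The size of the differences depended on the scaling, and the 30 min libraries lay below all others on both scales, though not in raw reads. The share of aligned reads in peaks was 76.5% ± 2.24 at 30 min, against 81.7% ± 1.76 in control cells and 84.9% ± 5.08 at 3 h 30 min (SD, n = 3 each). Scaled to reads for every 1000000 aligned reads (RPM), Peak_8008 held 62.2 to 64.6 RPM in the control libraries, 47.6 to 51.7 at 30 min and 59.7 to 69.4 at 3 h 30 min. Peak_14496 held 42.7 to 43.5, 33.1 to 33.8 and 41.6 to 44.2 in the same order. With all aligned reads as the library size, the log2 difference between 30 min and control became -0.37 at Peak_8008 and -0.36 at Peak_14496, while the median over all peaks became -0.07. Between 3 h 30 min and control the log2 difference of Peak_8008 turned from -0.04 to 0.03 under this scaling. For 3 h 30 min against 30 min the values were 0.40 and 0.36, and the median of all peaks moved from 0.0034 to 0.16, about the amount by which both members moved.

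The peaks around the members were examined next. Each member had 9 other peaks within 200 kb, edge to edge. Of these 18 peaks, 0 passed an adjusted p-value of 0.05 between 30 min and control (edgeR, quasi-likelihood test), against 0.813% of all peaks. An unadjusted p-value under 0.05 in the same test was found for 2 of the 18. Over all 16364 peaks it was found for 1881 higher and 1623 lower ones, so 2 is no excess. DESeq2 called 0, but it gave an adjusted p-value for only 1453 of the 16364 peaks. Whether these neighbours were among them was not checked, so no conclusion is drawn from it. Their log2 differences ranged from -0.06 to 0.33 around Peak_8008, with a median of 0.05, and from -0.10 to 0.14 around Peak_14496, with a median of 0.00034. No neighbour had a log2 difference as low as that of its member, but the members were selected by this difference.

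The nearest neighbour of the Zfp692 peak had its highest level where Peak_8008 had its lowest. Peak_3020 lay 2553 bp away on the lower-coordinate side, a gap smaller than the median of 21492.5 bp between a peak and its nearest neighbour. Its control libraries had 63.4, 63.1 and 62.1 CPM, its 30 min libraries 76.7, 71.4 and 67.6 CPM and its 3 h 30 min libraries 64.6, 61.6 and 55.6 CPM. All 3 libraries at 30 min were above every other library. Such a separation is common, as 18.3% of all peaks had every 30 min library above every control library. In 26.6% every 3 h 30 min library was below every 30 min library. The log2 difference of Peak_3020 between 30 min and control was 0.20 (SE 0.05), which did not pass the test (edgeR, adjusted p = 0.0844). It was called higher with the replicate block, with only the compared conditions, and without 3 h 30 min replicate 1 or 3. By contrast, Peak_3020 fell by 0.25 on the log2 scale (SE 0.05, edgeR, adjusted p = 0.00293) in the later interval, which ran until 3 h 30 min, a call kept with each library left out. With all aligned reads as the library size this fall was not called, and the 30 min range of 51.3 to 57.3 RPM overlapped the control range of 50.1 to 52.4.

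The ratio of Peak_8008 to Peak_3020 does not depend on any scaling of the library. It was 1.25 ± 0.0144 in control cells, 0.902 ± 0.0652 at 30 min and 1.27 ± 0.129 at 3 h 30 min (SD, n = 3 each). The ratio was between 0.830 and 0.958 in the 30 min libraries and at least 1.16 in every other library. The sum of both peaks was 141 ± 0.603, 137 ± 4.08 and 137 ± 2.85 CPM in the same order (SD, n = 3 each). This ratio and sum were chosen after the values were seen, and Peak_8008 was selected for its low level at 30 min, so they carry no test.

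**Figure D2:**
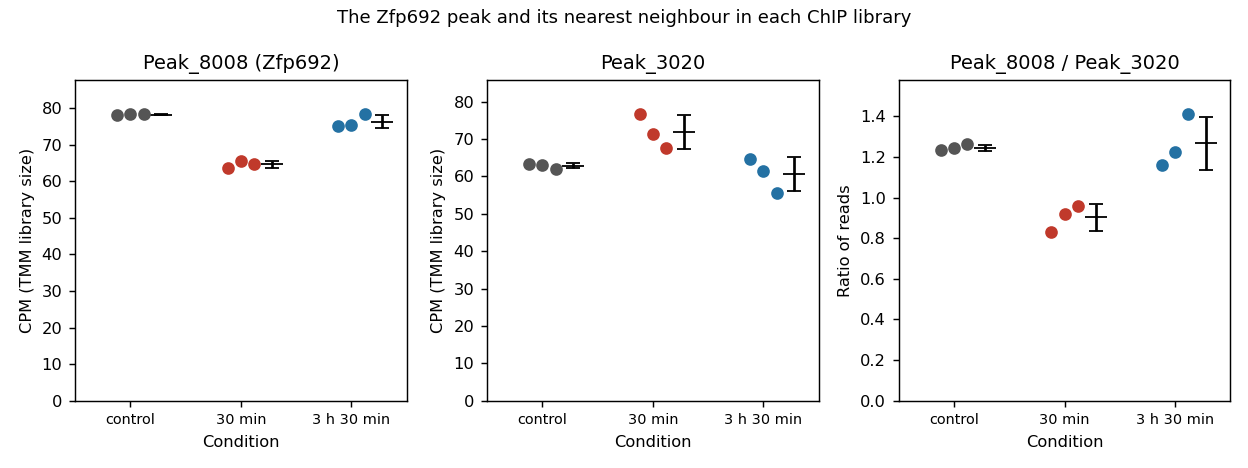
Level of Peak_8008 and of Peak_3020, its nearest neighbour, in CPM, and the ratio of their reads in each of the 9 ChIP libraries by condition, with the mean ± SD beside the points. The ratio lies between 0.830 and 0.958 in the 30 min libraries and is 1.16 or more in all others.

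Farther from the Zfp692 peak, the called changes were falls at 3 h 30 min. Peak_8009, 14079 bp away on the other side, passed no test in the main fit. It had 78.5 ± 0.888 CPM in control cells, 75.2 ± 1.67 at 30 min and 78.2 ± 4.42 at 3 h 30 min (SD, n = 3 each). Peak_15120, 21415 bp away, fell from 119 ± 0.711 CPM in control cells to 101 ± 9.19 at 3 h 30 min (SD, n = 3 each), a log2 change of -0.24 (SE 0.05, edgeR, adjusted p = 0.00441). Peak_15116, 125934 bp away, had the largest change of all 18 neighbours. Its log2 change was -0.51 at 3 h 30 min against control (SE 0.13, edgeR, adjusted p = 0.0113) and -0.84 at 3 h 30 min against 30 min (SE 0.13, edgeR, adjusted p = 0.000354). Peak_3018 and Peak_15119 fell by 0.17 and 0.14 on the log2 scale from control to 3 h 30 min (edgeR, adjusted p = 0.0332 and 0.0390). All 4 of these peaks also fell between 30 min and 3 h 30 min. With all aligned reads as the library size, Peak_15116 alone kept that call, and Peak_15115 and Peak_8009 near the Zfp692 peak were called higher.

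Around the Stk11ip peak the called changes were rises. Peak_14495, the nearest neighbour at 18166 bp, had 25.3 ± 0.749 CPM in control cells, 25.2 ± 1.31 at 30 min and 29.3 ± 0.506 at 3 h 30 min (SD, n = 3 each). It rose by 0.21 on the log2 scale from control to 3 h 30 min (SE 0.06, edgeR, adjusted p = 0.0155) and by 0.22 from 30 min (SE 0.06, edgeR, adjusted p = 0.00864). Its 3 libraries at 3 h 30 min were above all others, whereas Peak_14496 lay within or just below the control range at that time. Of all peaks, 22.8% had every 3 h 30 min library above every control library, and 22.9% above every 30 min library. Peak_7569, 22648 bp away on the other side, had 70.0 ± 0.915, 70.1 ± 1.16 and 75.5 ± 5.21 CPM (SD, n = 3 each) and passed no test in the main fit. Against control it was called higher at 3 h 30 min without TMM, with loess offsets, with the replicate block and without 3 h 30 min replicate 1. Against 30 min it was called higher in the same settings except loess offsets, and with all aligned reads as the library size. The last setting also called Peak_7567 higher, 138807 bp away. Peak_14493, 43136 bp away, rose between 30 min and 3 h 30 min by 0.09 on the log2 scale (SE 0.03, edgeR, adjusted p = 0.0270).

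Over both neighbourhoods, 5 of the 18 peaks passed the test between control and 3 h 30 min, 1 higher and 4 lower, against 31.6% of all peaks. Between 30 min and 3 h 30 min, 7 passed, 2 higher and 5 lower, against 41.2% of all peaks, whereas with all aligned reads as the library size 7 passed with 6 higher and 1 lower. Both shares were close to the background of all peaks. When 1 library was left out, the count of 5 became 2 to 8, and the calls of Peak_15116 and Peak_15120 were kept in each case. The rise of Peak_14495 from control was not called without control replicate 1 or 3 or without 3 h 30 min replicate 2, but its rise from 30 min was kept in each case. The changes of Peak_3018 and Peak_15119 from control were not called without any 1 of the 3 control libraries, without 30 min replicate 2 or without 3 h 30 min replicate 2 or 3, and that of Peak_15119 also not without 30 min replicate 1. The rise of Peak_14493 was not called without 30 min replicate 1 or 3 or 3 h 30 min replicate 2 or 3.

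**Figure D3:**
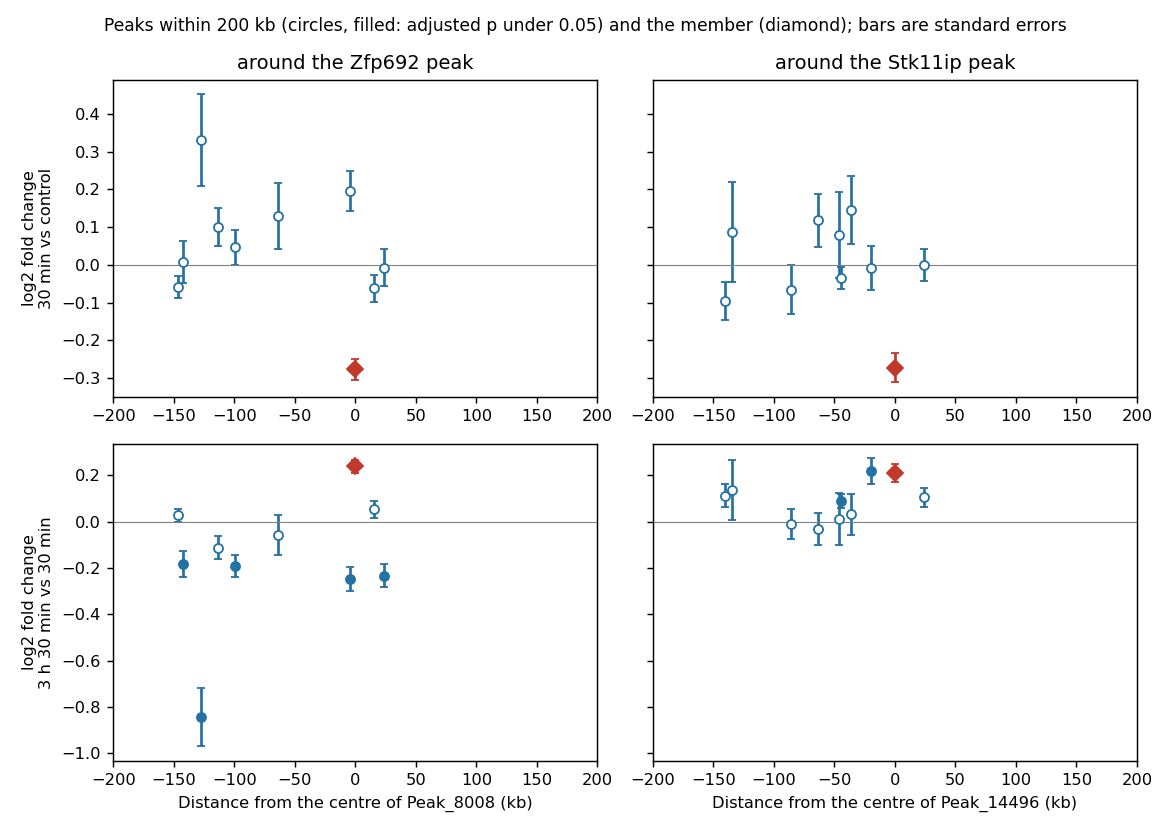
Log2 fold change of each member (diamond) and of the 9 peaks within 200 kb of it (circles, filled where the adjusted p-value was under 0.05) against the distance between peak centres in kb, for 30 min against control (top) and 3 h 30 min against 30 min (bottom). Bars are standard errors. At 30 min the members, selected by this difference, lie at -0.28 and -0.27, below all their neighbours, which range from -0.10 to 0.33.

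Peaks of similar width and height gave a further comparison. For each member these were the peaks whose width and mean RCPM both lay within 10% of its own, 503 peaks for Zfp692 and 343 for Stk11ip. Between 30 min and control, the median log2 difference was -0.01 over the 503 peaks, which ranged from -0.15 to 0.17, and 0.0032 over the 343 peaks, which ranged from -0.17 to 0.19. Both members lay outside these ranges, as 0 peaks in either set had a lower value. The genes were selected by their fall at 30 min, so a low place in these sets comes with the selection and is no test. In these sets 2 and 1 peaks passed the adjusted p-value of 0.05, against 0.813% of all peaks.

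Compared with the control at 3 h 30 min, both members lay inside the range of their sets. Of the peaks matched to the Zfp692 peak, 184 of 503 had a lower log2 difference than Peak_8008, and 90 of the 343 had a lower one than Peak_14496. Between 3 h 30 min and 30 min, 1 of the 503 peaks and 9 of the 343 had a higher log2 difference than the member. This comparison shares the 30 min libraries used for the selection. The medians of the sets in that comparison were 0.01 and 0.02.

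**Figure D4:**
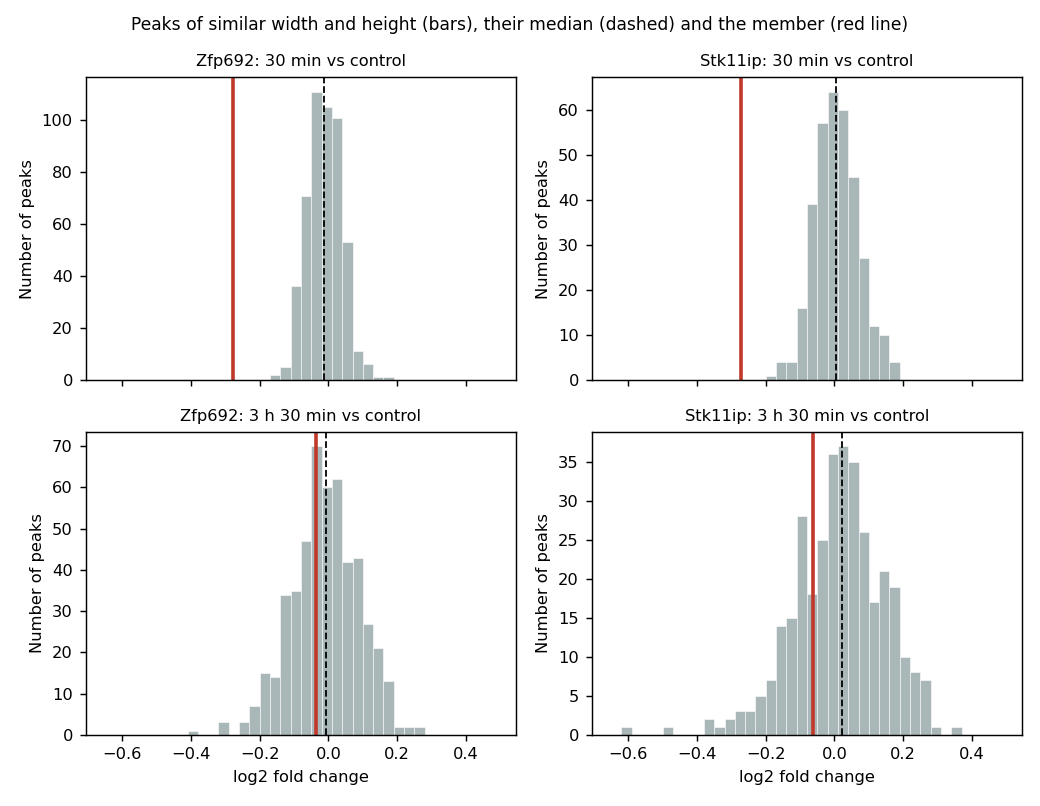
Distribution of the log2 fold change over peaks of similar width and height (503 for Zfp692, left, and 343 for Stk11ip, right) for 30 min against control (top) and 3 h 30 min against control (bottom). The dashed line is the median of the set and the red line the member. The member, selected by its fall at 30 min, lies outside the range of its set at 30 min and inside it at 3 h 30 min.

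Across the 9 ChIP libraries the members also resembled each other, but both were selected for a fall at 30 min, so that shared part was set by the selection. The Pearson correlation of their log2 CPM was 0.920, a description over 9 libraries that share the same 3 conditions. Peak_14496 was the 116th most similar peak to Peak_8008, and Peak_8008 the 19th most similar to Peak_14496. The 3 peaks most similar to Peak_8008 were Peak_10408, Peak_14409 and Peak_1826, with correlations of 0.988, 0.977 and 0.975, and their log2 differences between 30 min and control were only -0.10, -0.05 and -0.08. For Peak_14496 they were Peak_12775, Peak_1958 and Peak_7754, with 0.965, 0.963 and 0.962, and log2 differences of -0.23, -0.85 and -0.24. A correlation above 0.9 was found for 201 peaks with Peak_8008 and for 30 peaks with Peak_14496.

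The spread between libraries was small beside the differences at 30 min. The coefficient of variation of the Zfp692 peak was 0.121% in control cells, 1.48% at 30 min and 2.37% at 3 h 30 min, whereas counting error alone gives 2.98% to 3.10%. For the Stk11ip peak it was 2.04%, 3.35% and 3.14%, against counting errors of 3.65% to 3.76%. The control libraries of the Zfp692 peak thus had a spread below counting error, with 3 values behind it. The authors removed duplicate reads, which leaves 1 read for each start and strand. Reads filled 29.3% to 34.2% of the possible starts in Peak_8008 and 24.0% to 30.3% in Peak_14496, and the part of this limit in the values was not tested.

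Input reads showed the members' background without immunoprecipitation, and they were sparse. Peak_8008 held 4, 0 and 46 reads in the control input libraries, 3, 7 and 68 at 30 min and 7, 17 and 8 at 3 h 30 min. Peak_14496 held 2, 0 and 31, then 1, 3 and 36, then 7, 10 and 7 reads. The high counts belonged to the deepest input libraries, control replicate 3 and 30 min replicate 3, with 22886524 and 23568315 aligned reads. Depth was not the only difference. Control replicate 3 held 2.01 RPM at Peak_8008, against 0.748 and 0 in the other control inputs. At 30 min, replicate 3 held 2.89 RPM, against 0.465 and 1.14. Of their aligned reads, 2.95% and 3.55% fell in peaks. The other inputs had 1.05% and 1.07% in control cells and 1.37% and 1.35% at 30 min. The library with 0 reads had 2559134 aligned reads, which allows a level of up to 1.17 RPM. Intervals and limits here cover counting error only.

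Input levels were 0.919 ± 1.02 in control cells, 1.50 ± 1.25 at 30 min and 1.41 ± 0.695 RPM at 3 h 30 min for Peak_8008 (SD, n = 3 each). For Peak_14496 they were 0.576 ± 0.700, 0.724 ± 0.716 and 1.07 ± 0.227 (SD, n = 3 each). None of the 6 comparisons of input between conditions passed a two-sided exact permutation test, with p from 0.4 to 0.8 and an adjusted p of 0.8 for each, where 3 libraries against 3 cannot give less than 0.1. In edgeR's test of the input libraries, 0 of 3320 peaks passed between any conditions, with 1, 39 and 38 peaks at an unadjusted p under 0.05, and both members were below the filter on low counts. Without the filter, 0 of 16364 peaks passed.

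Read counts of both members were far above their input. Over all libraries, ChIP levels in RPM were 33.3 times the input at Peak_8008 (95% interval from the Poisson error of the input reads 28.5 to 39.1) and 36.7 times at Peak_14496 (30.1 to 45.3), against a median of 32.2 over all peaks. By condition the ratio was 39.2 in control cells, 22.9 at 30 min and 46.0 at 3 h 30 min for Peak_8008, with intervals of 29.8 to 52.9, 18.4 to 29.0 and 32.6 to 67.2. For Peak_14496 it was 40.1, 30.2 and 40.5, with intervals of 28.6 to 58.3, 22.2 to 42.2 and 27.2 to 63.2. The input part of these ratios rests on 24 to 78 reads per condition. Replicate 3 alone gave 46 of the 50 reads of Peak_8008 in control input and 68 of the 78 at 30 min. The ratios over all libraries use the same reads, and input at Peak_8008 ran from 0 to 2.89 RPM between libraries. Their intervals leave out this spread. Without input replicate 3 of each condition, the ratios of Peak_8008 were 126, 62.3 and 38.9 (intervals 49.2 to 462, 33.9 to 129.8 and 26.1 to 60.7) and those of Peak_14496 were 170.0, 105 and 36.3, an alternative chosen after seeing the data. The order of the conditions therefore rested on these libraries, and no difference in the ratio is read from it. When condition and input were fitted together over 18 libraries, the log2 differences between 30 min and control were -0.56 (SE 0.26) at Peak_8008 and -0.19 (SE 0.33) at Peak_14496, and the one between 3 h 30 min and 30 min at Peak_14496 turned to -0.51 (SE 0.36).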

How the data were processed

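Members, lists and comparisons were chosen with earlier results of these data known. The authors trimmed single-end reads with Trim Galore, aligned them to Rnor_6.0 with BWA, discarded duplicates and reads with several alignments, used MACS2 for peak calling, merged peaks over treatments and ran HTSeq on them. What they deposited are unnormalized counts for every merged peak. Lines of HTSeq's own classes, 11.5% to 24.9% of reads in ChIP and 96.5% to 98.9% in input libraries, entered only the totals of aligned reads. Groups and replicate numbers follow the sample titles.

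All 16364 peaks were fitted with edgeR 4.0.16 in R 4.3.3 (quasi-likelihood, TMM, low-count filter, a term for condition, 9 ChIP libraries, Benjamini-Hochberg adjusted p under 0.05). The common biological coefficient of variation over all peaks was 1.96%, below the counting error of both members. Some peaks spread more between libraries, such as Peak_15120 with 101 ± 9.19 CPM at 3 h 30 min (SD, n = 3). The script was tested on simulated counts with the same spread for all peaks and conditions. The real replicates spread differently by condition, so this checked the code and not the number of calls. Alternatives were other library sizes, loess offsets with a span of 0.3, no filter, the replicate block, only the compared conditions, DESeq2 1.42.0, each library left out, and an interaction with input. Input was also compared by exact permutation tests with scipy 1.17.1 in Python 3.11.15. Chi-square over degrees of freedom for replicate pairs was 0.664 to 0.917 for the controls, below Poisson noise in each of them, 1.01 to 1.69 at 30 min and 1.63 to 4.20 at 3 h 30 min, where replicates 1 and 3 differed most. All libraries were kept. Replicate numbers were not used to pair the samples in the main fit. In their deviations from the group means, 4 of 9 same-numbered pairs correlated above 0.1, in a range from -0.21 to 0.34. Pairs of different numbers ranged from -0.26 to 0.34. Deviations from a mean of 3 libraries depend on each other, so these values cannot exclude pairing. Named peaks were the members, called peaks within 200 kb, the nearest peak on each side and the 3 peaks with the most similar pattern. RNA-seq was not analysed here.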

Additional observations from a re-analysis of the deposited data

How the results depend on the processing

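The filter removed no peak, and omitting 3 h 30 min libraries left the 30 min and control reads unchanged. The log2 difference of 30 min minus control, which selected both members, was negative in each of the 17 alternatives, which is no test. With 1 library left out it ranged from -0.29 to -0.27 at Peak_8008 and from -0.30 to -0.25 at Peak_14496. In the same settings, 3 h 30 min against 30 min ranged from 0.22 to 0.25 and from 0.18 to 0.24, and 3 h 30 min against control from -0.061 to -0.025 and from -0.09 to -0.04. Without 3 h 30 min replicate 3, the last value of Peak_8008 was -0.061 against -0.037 with it. The following moves exceeded the spread between replicates. In the order above, all aligned reads as library size gave -0.37, 0.40 and 0.029 at Peak_8008 and -0.36, 0.36 and 0.00068 at Peak_14496. The interaction with input gave -0.56, 0.068 and -0.49, and -0.19, -0.51 and -0.70. The cause was not tested.

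The number of called peaks between 30 min and control varied widely. It was 133 of 16364 peaks (87 higher, 46 lower) in the main fit. DESeq2 called 81 (17 higher, 64 lower), but of only 1453 peaks with an adjusted p-value, so its count is not comparable. The number was 68 with all aligned reads (35 higher, 33 lower) and 2044 with only the compared conditions. It was 244 with the replicate block, 0 in the interaction with input, and 13 to 1287 with 1 library left out. Each of the 9 omissions changed it by over 1.5 times. It was 1254 and 1287 without 3 h 30 min replicates 1 and 3, and 52 without replicate 2. Without 30 min replicates 1, 2 and 3 it was 22, 32 and 55, and without control replicates 1, 2 and 3 it was 18, 13 and 28. Between 3 h 30 min and control, 5168 peaks were called, 3387 by DESeq2, 0 in the interaction and 2887 to 6954 with 1 library left out (2887 and 3294 without control replicates 1 and 2, 2985 without 3 h 30 min replicate 2). For 3 h 30 min against 30 min, 6741 were called, 3 in the interaction and 4664 to 8169 with 1 library left out. All aligned reads as library size turned the split from 2928 higher and 3813 lower to 7878 and 1668 in this comparison, and from 2249 and 2919 to 2554 and 1322 between 3 h 30 min and control.

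Among the 18 neighbours, 0 were called between 30 min and control. With only the compared conditions 2 were called (Peak_15116 and Peak_3020, both higher), with the replicate block 1 (Peak_3020), and with 1 library left out 0 to 2 (the same 2 peaks, without 3 h 30 min replicate 1 or 3). The 5 calls between 3 h 30 min and control became 2 with DESeq2, 3 with all aligned reads, 3 with only the compared conditions, 0 in the interaction and 2 to 8 with 1 library left out. They were 8 without 3 h 30 min replicate 1, 2 without 3 h 30 min replicate 2 or control replicate 1 or 3, and 3 without 3 h 30 min replicate 3, 30 min replicate 2 or control replicate 2. The 7 calls between 3 h 30 min and 30 min became 0 in the interaction and 5 to 11 with 1 library left out (11 without 3 h 30 min replicate 1), and their split of 2 higher and 5 lower turned to 6 higher and 1 lower with all aligned reads. The median of peaks of similar size to Peak_14496 moved to -0.00069 between 3 h 30 min and control and to -0.0078 between 30 min and control when width and height were matched within 5%. The replicate block changed no other count by over 1.5 times. Input calls were 0 with and without the filter. Depth limited the input, with 1 to 68 reads per member in the libraries that had any.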
